A study of Mus musculus with 6 samples.

Results

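The genes of the cell cycle and of DNA replication were followed through RNA sequencing of sorted keratinocytes of hair bulge (HB) origin from *Itga3* WT and KO mice. A gene was included when its symbol in the count table was one of a set list of 50, and all 50 were found among the 22295 genes of the table. By their best known role they were split into 13 replication genes, 25 mitosis genes, 9 genes of G1 cyclins, cyclin-dependent kinases (CDKs) and E2F, and 3 CDK inhibitors. All 50 were among the 21681 genes with a count in at least 1 library that were tested, and the lowest count of any of them in any library was 43.

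The 6 strand-specific libraries came from GFP-positive keratinocytes sorted from the epidermis of 3 K19 *Itga3* WT and 3 K19 *Itga3* KO mice on an FVB/N background, 1 library per mouse, and addressed what loss of the integrin subunit α3 does to these cells at the onset of tumorigenesis. Both lines carried a tamoxifen-inducible Cre driven by the *K19* promoter together with the mTmG reporter, which turns recombined cells and their progeny GFP-positive, and only the KO line carried floxed *Itga3* alleles. Per the labels, tamoxifen at 10 mg/ml was given for 4 days at 6 weeks of age (the methods give another concentration and starting age), and skin of both genotypes was treated with 30 μg DMBA at 7 weeks and then with 12.34 μg TPA for 2 weeks. DMBA is a mutagen that initiates skin tumors, and TPA is a phorbol ester that drives keratinocytes to divide. After this treatment the paper located GFP-positive cells of both genotypes in inner and outer layers of growing hair follicles. Some also lay in the isthmus, the infundibulum and the epidermis between follicles. The sort was on GFP, so the libraries were not limited to cells of the bulge itself. Each column of the table gives a genotype, a serial number and a number after the letter M, without the sample numbers of the labels. What these numbers stand for is not stated. Libraries are therefore lettered a to c within each genotype, in table order, and the letters do not pair them.

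A cell commits to division when D-type cyclins with CDK4 or CDK6, and then E-type cyclins with CDK2, inactivate the RB proteins and free E2F transcription factors, while CDK inhibitors hold these kinases back. E2F activates the genes that license origins and copy DNA, whereas the genes of G2 and mitosis are activated later, through CHR and CCAAT elements bound by the MuvB complex with MYB or FOXM1 and by NF-Y. HB stem cells are known to be largely quiescent outside hair growth and wounding, and TPA is known to bring epidermal keratinocytes into cycle.

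The promoters of the replication and the mitosis genes differed in the short sequences they held. RefSeq promoter windows of GRCm38.p6, from 250 bases before to 50 bases after a transcription start site, were matched by symbol for 39 of the 50 genes (43 windows). They were searched on both strands for CHR (TTTGAA or TTCGAA), the CCAAT box (CCAAT) and the core of the E2F site (TTCCCGC with the further forms TTGGCGC and also TTCGCGC and finally TTGCCGC). An E2F core can overlap another one on the opposite strand and a CCAAT box. CHR lay in 17 of 21 windows of mitosis genes (81.0%), in 2 of 12 of replication genes (16.7%) and in 19.2% of all 32851 windows. An E2F core lay in 9 of 12 replication windows (75.0%), in 3 of 21 mitosis windows (14.3%) and in 9.57% of all windows. A CCAAT box was present in 18 of 21 mitosis windows (85.7%) and 9 of 12 replication windows (75.0%), against 37.4% of all windows. CHR and CCAAT box together were found in 16 of 21 mitosis windows (76.2%) and in 7.52% of all windows. Windows are not all separate genes, as the 21 mitosis windows were of 20 genes and the 12 replication windows of 11. *Prc1* had 2 overlapping windows that held the same CHR and CCAAT box, and *Mcm7* had 2 windows, each with an E2F core. In the 7 windows of G1 genes there was no CHR and in 1 an E2F core, and of the 3 windows of CDK inhibitors 2 held a CCAAT box. Shown are the windows of 2 mitosis genes, *Ccnb2* (cyclin B2) and *Top2a* (topoisomerase II), and of 2 replication genes, *Mcm5* and *Mcm6* (subunits of the replicative helicase), picked for their many matches. They are written 5′ to 3′ along the gene, with every match in capitals: CHR and CCAAT box in the first pair, E2F core and CCAAT box in the second.
Ccnb2, chr9:70421505-70421804, strand minus: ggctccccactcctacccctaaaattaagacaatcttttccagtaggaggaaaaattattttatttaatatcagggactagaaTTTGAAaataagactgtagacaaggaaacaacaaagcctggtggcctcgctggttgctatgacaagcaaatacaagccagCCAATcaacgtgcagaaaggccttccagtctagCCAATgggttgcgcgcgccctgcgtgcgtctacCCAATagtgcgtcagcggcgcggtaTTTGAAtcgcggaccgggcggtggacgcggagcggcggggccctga
Top2a, chr11:99024140-99024439, strand minus: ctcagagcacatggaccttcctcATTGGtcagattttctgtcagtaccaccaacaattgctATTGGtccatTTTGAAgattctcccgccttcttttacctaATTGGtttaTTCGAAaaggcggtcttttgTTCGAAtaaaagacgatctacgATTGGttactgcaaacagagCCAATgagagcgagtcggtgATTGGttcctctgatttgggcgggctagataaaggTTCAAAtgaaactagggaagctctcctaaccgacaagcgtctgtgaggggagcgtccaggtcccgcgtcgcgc
Mcm5, chr8:75109259-75109558, strand plus: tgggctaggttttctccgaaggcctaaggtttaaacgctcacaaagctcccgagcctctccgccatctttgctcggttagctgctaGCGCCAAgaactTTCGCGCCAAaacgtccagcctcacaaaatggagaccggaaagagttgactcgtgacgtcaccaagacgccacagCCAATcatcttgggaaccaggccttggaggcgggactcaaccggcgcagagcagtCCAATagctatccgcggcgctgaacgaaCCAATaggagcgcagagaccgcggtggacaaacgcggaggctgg
Mcm6, chr1:128359656-128359955, strand minus: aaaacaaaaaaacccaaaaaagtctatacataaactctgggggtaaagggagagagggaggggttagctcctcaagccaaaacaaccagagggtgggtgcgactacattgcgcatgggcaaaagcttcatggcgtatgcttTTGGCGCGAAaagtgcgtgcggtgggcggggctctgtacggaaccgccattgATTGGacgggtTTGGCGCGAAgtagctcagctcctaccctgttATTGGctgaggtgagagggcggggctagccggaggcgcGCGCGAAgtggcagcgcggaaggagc
A match is a description of the letters in these windows only. *Aurkb*, *Ccna2*, *Ccnd1*, *Ccnd2*, *Ccne2*, *Cdkn1c*, *Foxm1*, *Gins2*, *Kif20a*, *Mcm4* and *Tpx2* had no window.

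**Figure D1:**
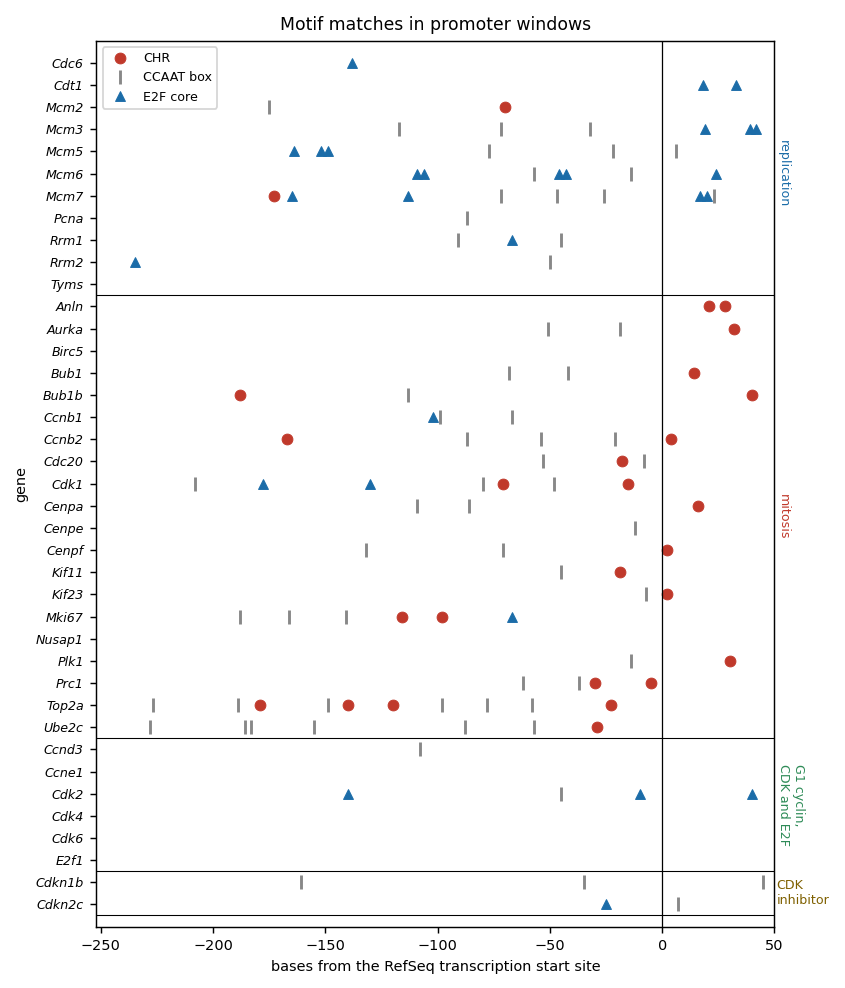
Matches to CHR (red circles), the CCAAT box (grey bars) and the E2F core (blue triangles) in promoter windows of the 39 matched genes, by distance in bases from the RefSeq start site; genes with several windows share a line. Red circles lie mostly on mitosis genes (17 of 21 windows) and blue triangles mostly on replication genes (9 of 12 windows).

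Counts on genes summed to between 20578309 and 23670507 per library, and counts per 1000000 (CPM) below are scaled by TMM factors of 0.981 to 1.03. *Itga3*, the deleted gene, stood at 371, 252 and 271 CPM in WT (a to c) and 131, 124 and 134 CPM in KO (a to c), with a log2 fold change of −1.20 ± 0.13 (SE) and an adjusted p of 0.00283 in edgeR, so the genotype labels held in each library. Markers of basal and HB keratinocytes were high in all libraries (*Krt5*, which is not specific to the bulge, 14267 to 23976 CPM, and *Krt15* 9616 to 15459 CPM). Of 8 such markers, 6 were lower in mean level in KO. *Cd34*, a surface marker of HB stem cells, stood at 881, 806 and 872 CPM in WT (a to c) and 399, 625 and 526 CPM in KO (a to c) and was lower in KO (log2 fold change −0.72 ± 0.14 (SE), adjusted p = 0.0462, edgeR). *Lgr5* had a log2 fold change of −0.47 (unadjusted p 0.0167, adjusted p 0.283, edgeR). The summed level of 8 fibroblast markers was 117 to 178 CPM in WT and 48.5 to 80.7 CPM in KO (*Col3a1* at 0 in WT). That of 8 melanocyte markers was 65.5 to 82.8 CPM in WT and 42.3 to 50.3 CPM in KO (mostly *Mitf*, with *Tyr* and *Mlana* at 0 in WT a). Single markers went both ways. By log2 fold change, 4 fibroblast markers were higher and 4 lower in KO, and 6 melanocyte markers were higher and 2 lower. The sum of 12 immune markers was 15.3 to 21.6 CPM in WT and 15.3 to 21.9 CPM in KO (*Lyz2* at 0 in WT), that of 6 endothelial markers 5.73 to 8.72 and 3.70 to 5.06 CPM (*Cdh5* at 0 in WT), and that of the 15 detected of 17 hair matrix and inner root sheath markers 189.8 to 221 and 217 to 260.3 CPM. Of these 15, 12 were higher in mean level in KO and 3 hair keratins passed in edgeR, *Krt25* (log2 fold change 3.45, adjusted p 0.0256), *Krt28* (1.83, 0.0461) and *Krt35* (3.13, 0.0462), each at 9.05 CPM or less in every library. The part of these markers in the results below was not tested.

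No gene of the list passed the test between KO and WT. By the quasi-likelihood test of edgeR, adjusted over all genes by Benjamini-Hochberg, 0 of 50 had an adjusted p below 0.05, where 146 of 21681 genes (0.673%) did. DESeq2 likewise called 0 of 50, where 3.99% of the genes it gave an adjusted p were called, and limma-voom 0 of 50, where 0.111% were. At an unadjusted p below 0.05, 2 of 50 were higher in KO, *Cdk4* and *Ccnd1* (background 5.58% of all genes), and 0 of 50 were lower (background 5.97%). In 2 of 50, *Cdk4* and *Cdkn1c*, the 3 WT and the 3 KO libraries did not overlap, a pattern seen in 16.3% of all genes tested, so the list lay below the background on this count. An exact permutation test of 3 against 3 cannot give a p below 0.1. The classes nevertheless differed in how they varied from library to library, and for mitosis genes most of it lay between WT mice, as the heat map of all 50 genes shows.

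**Figure D2:**
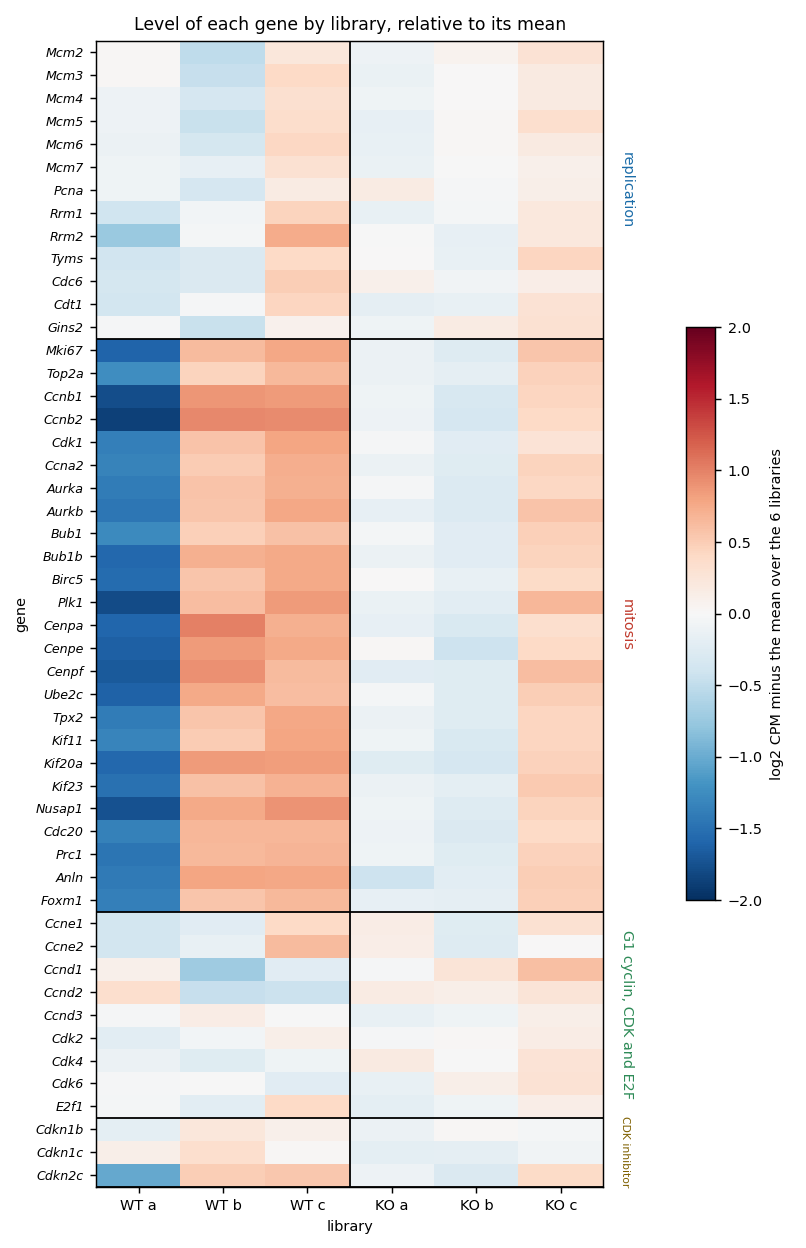
Level of each of the 50 genes (lines) in each library (columns), as log2 CPM minus the gene's mean over the 6 libraries, with blue for below and red for above that mean. The block of 25 mitosis genes is blue throughout in WT a and red throughout in WT b and WT c, whereas replication genes vary less.

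The mitosis genes varied most, and they varied within WT. In WT a each of the 25 was at its lowest level of the 6 libraries, and the highest level was in WT c for 16 and in WT b for 9. By contrast, WT a was the lowest library for 16.2% of the 13054 genes that had 10 counts or more in all libraries. *Mki67*, the proliferation marker Ki-67 (chr7:135689788-135716379), was at 57.7, 270.1 and 297 CPM in WT (a to c) and 161, 147 and 257 CPM in KO (a to c). WT a thus lay far below the other 5 libraries, and the KO libraries lay between WT a and the other WT libraries. *Top2a*, which untangles DNA before mitosis and whose window above held 4 CHR matches, stood at 71.0, 229.9 and 264 CPM in WT (a to c) and 155, 148 and 231 CPM in KO (a to c). WT a was again the lowest and WT c the highest, and KO c came level with WT b. For *Mki67* this came to 208 ± 131 CPM in WT and 188 ± 60.1 CPM in KO (mean ± SD, n = 3 each), log2 fold change −0.15 ± 0.43 (SE), adjusted p = 0.915. For *Top2a* it came to 188 ± 103 CPM in WT and 178 ± 45.8 CPM in KO (mean ± SD, n = 3 each), log2 fold change −0.083 ± 0.35 (SE), adjusted p = 0.949.

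For the genes of the mitotic kinase WT a was again the lowest. *Cdk1*, its catalytic subunit, was at 12.8, 49.0 and 56.8 CPM in WT (a to c) and 32.5, 28.1 and 39.7 CPM in KO (a to c), with a log2 fold change of −0.24 ± 0.38 (SE) and an adjusted p of 0.825. *Ccnb1* and *Ccnb2* encode the B-type cyclins that activate it. *Ccnb1* was at 6.93, 43.9 and 43.0 CPM in WT (a to c) and 22.5, 19.1 and 32.1 CPM in KO (a to c), with a log2 fold change of −0.35 ± 0.47 (SE) and an adjusted p of 0.780. Of its exonic stretches of 65 bases, the read length, 37.8% also occur in another annotated gene, mainly the pseudogene *Ccnb1-ps*, so with unique mapping its level is uncertain. *Ccnb2* (chr9:70407689-70421554), whose window above held 2 CHR matches, was at 5.83, 41.3 and 40.9 CPM in WT (a to c) and 19.8, 16.9 and 27.9 CPM in KO (a to c), with a log2 fold change of −0.45 ± 0.49 (SE) and an adjusted p of 0.717. It had the widest span within WT of the 25, 7.08-fold between the highest and the lowest library. For *Cdk1* and both cyclins the KO values fell inside the WT range.

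Genes of the centromere, the spindle and cytokinesis showed the low level in WT a as well. *Cenpa*, the histone H3 variant of centromeres, was at 8.26, 50.1 and 40.7 CPM in WT (a to c) and 22.1, 20.1 and 31.4 CPM in KO (a to c), with a log2 fold change of −0.43 ± 0.45 (SE) and an adjusted p of 0.697. *Cenpf*, a kinetochore protein, was at 10.5, 62.8 and 52.0 CPM in WT (a to c) and 28.6, 28.3 and 51.2 CPM in KO (a to c), with a log2 fold change of −0.21 ± 0.46 (SE) and an adjusted p of 0.872. *Cdc20*, the activator of the anaphase-promoting complex, was at 17.9, 72.6 and 72.5 CPM in WT (a to c) and 42.8, 37.6 and 60.2 CPM in KO (a to c), with a log2 fold change of −0.21 ± 0.38 (SE) and an adjusted p of 0.856. Of its stretches of 65 bases, 6.59% occur in another gene. In all 3 genes WT a was lowest and every KO library lay within the WT range. *Kif20a*, a kinesin of the central spindle, was at 11.0, 59.5 and 58.3 CPM in WT (a to c) and 27.6, 26.1 and 45.2 CPM in KO (a to c), with a log2 fold change of −0.38 ± 0.45 (SE) and an adjusted p of 0.736. *Anln*, the scaffold anillin of the contractile ring, was at 24.8, 114 and 113 CPM in WT (a to c) and 49.5, 56.9 and 93.3 CPM in KO (a to c), with a log2 fold change of −0.34 ± 0.42 (SE) and an adjusted p of 0.761. In both, WT b and WT c were above every KO library and WT a was below all of them. Per kilobase of exon, the mean level over the 6 libraries ran from 27.1 CPM for *Cdc20* down to 2.52 CPM for *Cenpf*. The top rank depended on the length used: per kilobase of the longest transcript *Top2a* was at 35.1 CPM, above *Cdc20* at 28.2 CPM.

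The other 15 mitosis genes were *Ccna2*, *Aurka*, *Aurkb*, *Bub1*, *Bub1b*, *Birc5*, *Plk1*, *Cenpe*, *Ube2c*, *Tpx2*, *Kif11*, *Kif23*, *Nusap1*, *Prc1* and *Foxm1*. They encode cyclin A2, the Aurora and Polo kinases, parts of the spindle checkpoint and of the chromosomal passenger complex, kinesins and other spindle proteins, a ubiquitin-conjugating enzyme of anaphase and, as *Foxm1*, a transcription factor of the class. Across these 15 the level was 4.82 to 22.5 CPM in WT a, 18.9 to 93.6 CPM in WT b and WT c, and 10.5 to 77.4 CPM in the KO libraries. Their log2 fold changes ran from −0.31 (*Cenpe*) to −0.035 (*Bub1*), with adjusted p of 0.800 to 0.999 (edgeR). In all 25 mitosis genes WT a was below every KO library, and in 21 of 25 both WT b and WT c were above every KO library (the others were *Top2a*, *Aurkb*, *Bub1* and *Plk1*). Among the KO libraries KO c was the highest for each of the 25.

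The size of the WT spread set the precision of the comparison. Between the highest and the lowest WT library the 25 mitosis genes spanned 3.64-fold to 7.08-fold, with a median of 4.66-fold, against a median of 1.23-fold for those 13054 genes. Between the KO libraries their median span was 1.64-fold, against 1.18-fold. The median SD of log2 CPM was 1.27 in WT and 0.37 in KO, against 0.15 and 0.12 for the 13054 genes. Such a spread can stand for fewer cells in G2 and mitosis or for less of these RNAs per cell, which bulk libraries cannot tell apart.

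Genes of the cycle made up much of what was low in WT a alone. In WT a 101 of the 13054 genes were below 0.5 times their level in each other library. Of these, 24 were mitosis genes of the list and 27 were other genes of the cycle. The same count was 24 for WT b, 7 for WT c, 29 for KO a, 2 for KO b and 3 for KO c, and none of those was among the 50. WT b stood out on the high side. Above 2 times their level in each other library were 79 genes in WT b, 5 in KO a and at most 1 in the others, none of the 50. WT b was also the lowest library for 28.7% of the 13054 genes and the highest for 24.1%, against 16.2% and 17% for WT a. WT a had neither the lowest depth nor the fewest detected genes (22204445 counts, 18174 genes with a count). Only KO c had fewer detected genes, 18160, while WT b and WT c had 18663 and 18498. WT a also had the highest summed level of the 8 basal and HB markers, 48876 CPM against 31947 to 43191 CPM in the other libraries. This sum includes *Krt5* and *Krt14*, which are not specific to the bulge. The sum of 7 suprabasal markers was 1876, 2463.5 and 2280 CPM in WT (a to c) and 2871, 2722 and 2791 CPM in KO (a to c). It was lowest in WT a, and each KO library was above each WT library. Of these 7 markers, 5 were higher and 2 lower in KO by log2 fold change (median 0.070, range −0.69 to 0.96). Among them 1 passed and was higher in KO (adjusted p 0.00104, edgeR). Whether these bear on the mitosis genes was not tested.

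As a summary for each library, log2 CPM was centred on each gene and averaged over a class. This mean was −1.51, 0.68 and 0.74 in WT (a to c) for mitosis genes, and −0.11, −0.25 and 0.46 in KO (a to c). For replication genes it was −0.21, −0.29 and 0.37 in WT (a to c) and −0.072, −0.022 and 0.23 in KO (a to c). WT a and WT b were thus close in the class mean of replication genes and far apart in that of mitosis genes. The plot of class means by library shows this. By the median over members, replication genes were at −0.11 in WT a and −0.33 in WT b. Single replication genes differed in both directions. *Mcm2* was at 111 CPM in WT a and 76.4 CPM in WT b, and *Rrm2* at 53.9 and 87.7 CPM. The mean CPM of mitosis genes divided by that of replication genes was 0.198, 0.919 and 0.625 in WT (a to c), and 0.470, 0.413 and 0.582 in KO (a to c). The KO ratios lay within the WT range.

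**Figure D3:**
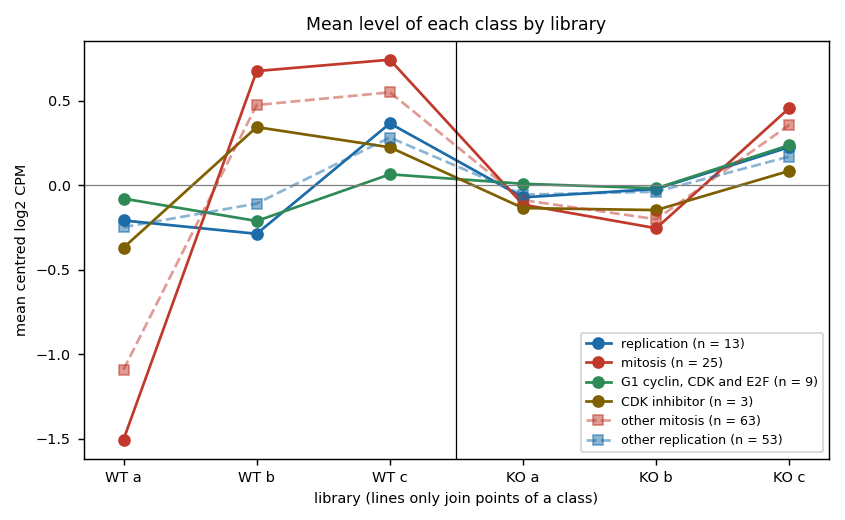
Mean of centred log2 CPM over each class (y axis) in each of the 6 libraries (x axis), with solid lines for the 4 classes of the list and dashed lines for the further genes of mitosis and replication. The mitosis line drops to −1.51 in WT a and lies between −0.25 and 0.74 elsewhere, while the replication line stays between −0.29 and 0.37.

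Among replication genes the direction between the genotypes depended on the libraries included, while with all libraries the class median was positive in each tool. Of the 13, 8 were higher and 5 lower in mean level in KO, with log2 fold changes from −0.098 to 0.25, a median of 0.047 (median over all genes 8.8e-05) and adjusted p of at least 0.594 (edgeR). Within WT they spanned 1.38-fold to 2.79-fold, with a median of 1.73-fold, and within KO a median of 1.28-fold. All 6 helicase genes, *Mcm2* to *Mcm7*, together with *Pcna* and *Gins2* were lowest in WT b, whereas the nucleotide-supply genes *Rrm1*, *Rrm2* and *Tyms* and the origin-licensing genes *Cdc6* and *Cdt1* were lowest in WT a. This difference was not tested, and WT a and WT b were close in *Cdc6* (9.04 and 9.39 CPM) and *Tyms* (22.9 and 24.4 CPM). Among further genes of replication, *Cdc45*, *Gins3* and *Mcm10* of the helicase machinery were lowest in WT a and *Dut* of nucleotide supply in WT b. WT c was the highest library for 9 of 13. In limma-voom 2 of the 13 were lower in KO (median 0.068) and in DESeq2 5 (median 0.051). In edgeR, 7 were lower without WT a (median −0.0011), 10 without WT b (−0.080) and 0 without WT c (0.30). It was 1 without KO a (0.087), 2 without KO b (0.074) and 9 without KO c (−0.039).

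The helicase loads onto origins in G1 and unwinds DNA in S phase. *Mcm2* (chr6:88883475-88898780) was at 111, 76.4 and 128 CPM in WT (a to c) and 102, 115 and 133 CPM in KO (a to c), or 105 ± 26.3 CPM in WT and 116 ± 15.7 CPM in KO (mean ± SD, n = 3 each), log2 fold change 0.15 ± 0.16 (SE), adjusted p = 0.726. WT b was the lowest of the 6, and the groups overlapped. Over the 6 genes WT b held 66.2 to 121 CPM, WT c 119 to 167 CPM and the KO libraries 83.0 to 149.7 CPM, and the log2 fold changes ran from −0.040 (*Mcm7*) to 0.15 (*Mcm2*). Of the 65-base stretches of *Mcm7*, 18.7% occur in another gene, so its level is uncertain. *Gins2*, a subunit of the complex that activates the helicase, had the smallest p of the class at 24.3, 18.1 and 26.1 CPM in WT (a to c) and 23.2, 27.8 and 30.7 CPM in KO (a to c), with a log2 fold change of 0.25 ± 0.15 (SE) and an adjusted p of 0.594. *Pcna*, the sliding clamp of the polymerases, was at 115, 96.6 and 137 CPM in WT (a to c) and 137, 121 and 133 CPM in KO (a to c), with a log2 fold change of 0.17 ± 0.12 (SE) and an adjusted p of 0.667. Of its 65-base stretches, 27.0% occur in another gene, mainly *Pcna-ps2*. For both genes the WT and KO libraries overlapped.

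In the 5 genes of nucleotide supply and licensing on the list WT a was the lowest library, by a small margin in some. *Rrm2*, the regulated subunit of ribonucleotide reductase, was at 53.9, 87.7 and 150.1 CPM in WT (a to c) and 89.0, 80.3 and 103 CPM in KO (a to c), with a log2 fold change of −0.10 ± 0.27 (SE) and an adjusted p of 0.906. Its span of 2.79-fold within WT was the widest of the class. *Tyms*, thymidylate synthase, was at 22.9, 24.4 and 39.6 CPM in WT (a to c) and 30.1, 27.0 and 40.3 CPM in KO (a to c), with a log2 fold change of 0.16 ± 0.21 (SE) and an adjusted p of 0.763. Of its 65-base stretches, 5.73% occur elsewhere. *Cdc6*, which loads the helicase, was at 9.04, 9.39 and 16.3 CPM in WT (a to c) and 12.3, 11.0 and 12.6 CPM in KO (a to c), with a log2 fold change of 0.047 ± 0.21 (SE) and an adjusted p of 0.952. WT a and WT b differed little in *Tyms* and *Cdc6*, and WT c was above them in each. Per kilobase of exon, *Pcna* was the most abundant of the class at 51.4 CPM and *Cdc6* the least at 2.25 CPM. The other 7 replication genes (*Mcm3* to *Mcm7*, *Rrm1* and *Cdt1*) had log2 fold changes of −0.047 to 0.10 and adjusted p of 0.847 to 0.999.

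Each library was left out in turn, and for mitosis genes the median moved furthest without WT a, which carried most of their spread. Nothing in the labels sets a WT sample apart, though the number after the letter M in the column of WT a is the furthest from the rest. What these numbers stand for is not stated, and whether they bear on the values was not tested. WT a is singled out here after its values were seen. The mean level of all 25 mitosis genes was lower in KO both with and without WT a, with a median log2 fold change of −0.20 (range −0.45 to −0.035) with it and −0.60 without it. WT a was the lowest library for each of the 25, so leaving it out necessarily lowered their fold changes. The counts and calls without it are therefore descriptive only. Without WT a, 6 of the 25 passed the test in edgeR, *Ccnb1*, *Ccnb2*, *Cdk1*, *Cenpa*, *Kif20a* and *Nusap1* (background lower in KO, 1.22% of 21387 genes). For *Ccnb2* the log2 fold change was −0.93 ± 0.17 (SE), adjusted p = 0.0187, and for *Cenpa* −0.88 ± 0.17 (SE), adjusted p = 0.0241. For *Cdk1* it was −0.66 ± 0.14 (SE), adjusted p = 0.0346, and for *Kif20a* −0.83 ± 0.19 (SE), adjusted p = 0.0432. For *Mki67* it was −0.59 ± 0.19 (SE), adjusted p = 0.132, and for *Top2a* −0.47 ± 0.16 (SE), adjusted p = 0.172, so these markers did not pass. At an unadjusted p below 0.05, 26 of the 50 were lower, all 25 mitosis genes and *Cdkn2c* (background 8.29%). The calls depended on the tool. Without WT a, DESeq2 called 12 mitosis genes lower (background 3.59% of the genes it gave an adjusted p) and limma-voom 0 (background 0.103%). At an unadjusted p below 0.05, 24 were lower in DESeq2 (background 6.39%) and 25 in limma-voom (background 8.59%).

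The direction for mitosis genes with all libraries depended on the tool and on single WT libraries, and the cause was not tested. In limma-voom 4 of 25 were lower in KO and the median was 0.063, whereas in edgeR and in DESeq2 25 of 25 were lower. In edgeR, leaving out WT b gave a median of 0.049 with 8 of 25 lower, and leaving out WT c 0.12 with 7 of 25 lower. Without KO c the median was −0.43.

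**Figure D4:**
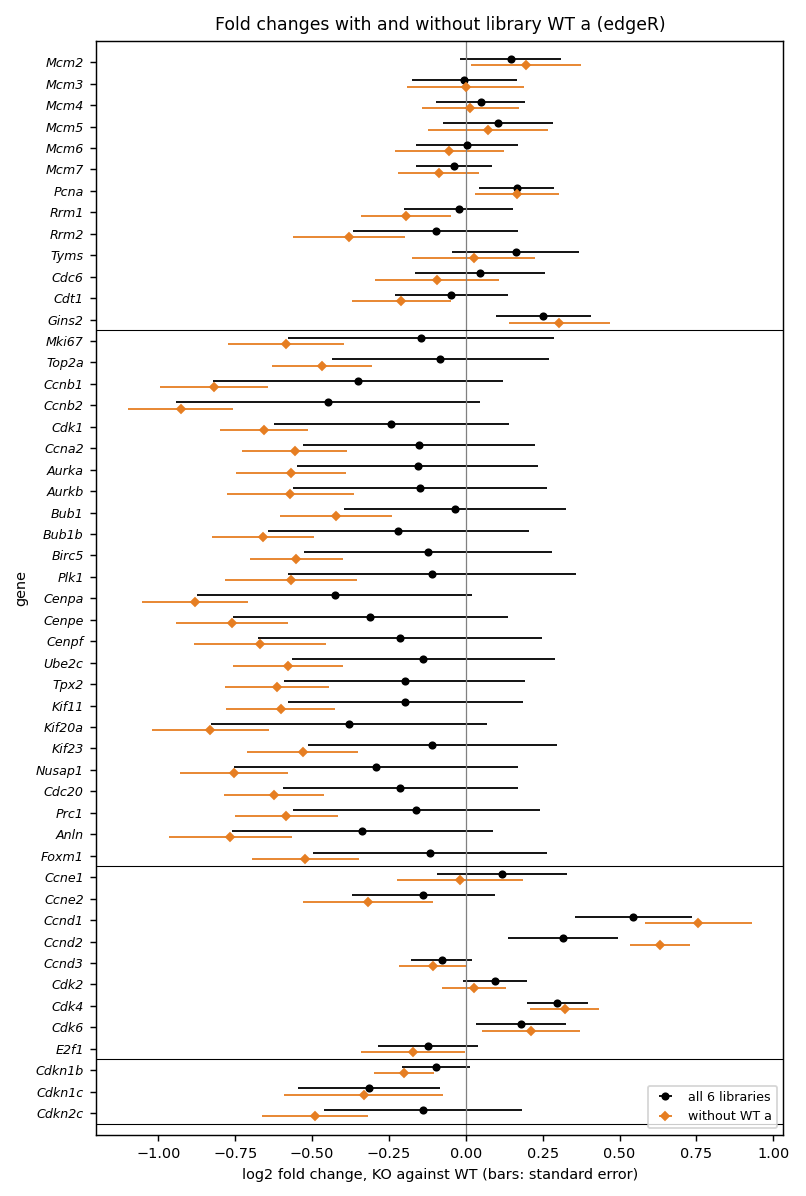
Log2 fold change of KO against WT (x axis, bars are standard errors derived from the F statistic of edgeR) for each of the 50 genes. Fits are with all 6 libraries (black circles) and without WT a (orange diamonds). The 25 mitosis genes move left and their bars shorten without WT a (median −0.20 to −0.60), while replication genes lie between −0.38 (*Rrm2*) and 0.30 (*Gins2*) without it.

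G1 cyclins and their kinases held the smallest p of the list. *Cdk4*, the kinase partner of the D-type cyclins (chr10:127063534-127067920), was at 217, 198 and 220.1 CPM in WT (a to c) and 265, 232 and 283 CPM in KO (a to c). Each KO library was above each WT library (p = 0.1 in a two-sided exact test by permutation, the lowest p it allows). This came to 212 ± 11.9 CPM in WT and 260.0 ± 26.1 CPM in KO (mean ± SD, n = 3 each), log2 fold change 0.30 ± 0.10 (SE), adjusted p = 0.246, with an unadjusted p of 0.0119 in edgeR. *Ccnd1*, cyclin D1 (chr7:144929931-144939869), was at 213, 122 and 171 CPM in WT (a to c) and 197, 239 and 302 CPM in KO (a to c). KO b and KO c were above every WT library and KO a was below WT a. This came to 169 ± 46.0 CPM in WT and 246 ± 52.8 CPM in KO (mean ± SD, n = 3 each), log2 fold change 0.54 ± 0.19 (SE), adjusted p = 0.271, with an unadjusted p of 0.0149 in edgeR. Neither gene passed after adjustment.

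*Ccnd2*, cyclin D2 (chr6:127125779-127151048), was at 187, 108 and 110.1 CPM in WT (a to c) and 166, 161 and 177 CPM in KO (a to c), with a log2 fold change of 0.32 ± 0.18 (SE) and an adjusted p of 0.556. WT a, the highest library of all, was above the KO libraries and WT b and WT c were below them. *Ccnd3*, cyclin D3, was at 73.1, 82.5 and 74.4 CPM in WT (a to c) and 67.2, 69.8 and 81.0 CPM in KO (a to c), with a log2 fold change of −0.078 ± 0.099 (SE) and an adjusted p of 0.762, and the groups overlapped. Without WT a the log2 fold change was 0.76 ± 0.17 (SE), adjusted p = 0.0448 for *Ccnd1* and 0.63 ± 0.097 (SE), adjusted p = 0.00917 for *Ccnd2*, so both passed in edgeR (background higher in KO, 1.22% of all genes), and at an unadjusted p below 0.05 *Cdk4* joined them (3 of 50, background 7.85%). Without WT a, *Ccnd2* also passed in limma-voom (background higher in KO, 0.0842%), where *Ccnd1* did not, and both passed in DESeq2 (background 3.82%). *Ccnd1* was at 0.36 without WT b (adjusted p 0.523) and 0.37 without KO c (adjusted p 0.679) in edgeR. *Ccnd2* was at 0.18 without WT b (adjusted p 0.787) and 0.19 without WT c (adjusted p 0.748) in edgeR. WT a was thus the lowest library for mitosis genes and the highest for *Ccnd2*. It was the highest WT library for both *Ccnd1* and *Ccnd2*, so leaving it out necessarily raised their fold changes. As WT a was singled out after its values were seen, the calls without it are descriptive only.

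*Cdk6*, the other partner kinase, was at 13.9, 14.2 and 12.2 CPM in WT (a to c) and 12.8, 15.4 and 17.4 CPM in KO (a to c), with a log2 fold change of 0.18 ± 0.15 (SE) and an adjusted p of 0.681. KO b and KO c were above every WT library and KO a was within the WT range. Per kilobase of exon, *Cdk4* was the most abundant gene of the class at 72.6 CPM and *Cdk6* the least at 1.02 CPM. Of the cyclins D, *Ccnd1* was at 44.0, *Ccnd2* at 16.1 and *Ccnd3* at 8.51 CPM per kilobase. By the longest transcript they were at 55.4, 23.9 and 19.4 CPM per kilobase. The other members, *Ccne1* and *Ccne2* (E-type cyclins), *Cdk2* and *E2f1*, had log2 fold changes of −0.14 to 0.12 and adjusted p of 0.712 to 0.856. Over the class of 9, 6 were higher and 3 lower in mean level in KO, with a median log2 fold change of 0.12.

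**Figure D5:**
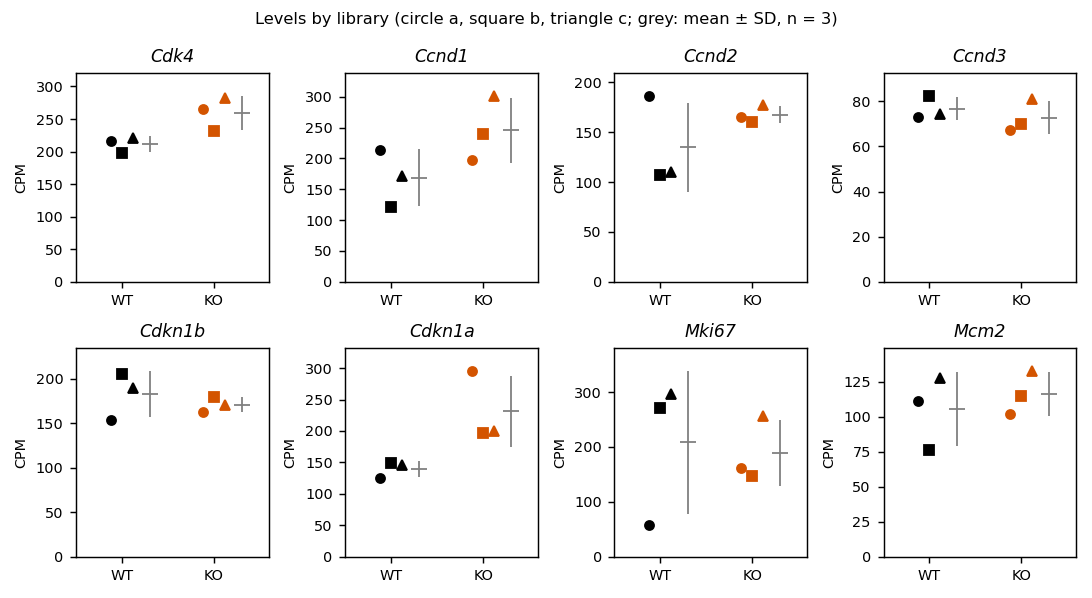
CPM (y axis, from 0) of 4 G1 genes, 2 CDK inhibitors, *Mki67* and *Mcm2* in each library of WT (black) and KO (orange), with grey bars for mean ± SD (n = 3). KO libraries lie above WT libraries without overlap for *Cdk4* and *Cdkn1a*, and WT a lies far below the rest for *Mki67* (57.7 CPM).

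The 3 CDK inhibitors were lower in mean level in KO, and none passed. *Cdkn1b*, encoding p27, was at 154, 205 and 190.0 CPM in WT (a to c) and 162, 180.1 and 171 CPM in KO (a to c), with a log2 fold change of −0.10 ± 0.11 (SE) and an adjusted p of 0.728. *Cdkn1c*, encoding p57, was at 2.48, 2.89 and 2.34 CPM in WT (a to c) and 2.00, 2.02 and 2.18 CPM in KO (a to c), with a log2 fold change of −0.31 ± 0.23 (SE) and an adjusted p of 0.668. It was the only gene of the list with every KO library below every WT library (p = 0.1 in the same exact permutation test), on 43 to 63 counts per library. *Cdkn2c*, encoding p18, an inhibitor of CDK4 and CDK6, was at 7.94, 22.9 and 23.6 CPM in WT (a to c) and 15.2, 13.2 and 21.0 CPM in KO (a to c), with a log2 fold change of −0.14 ± 0.32 (SE) and an adjusted p of 0.882. WT a was lowest for *Cdkn2c*, as for mitosis genes, and its span within WT was 2.98-fold, against 1.33-fold for *Cdkn1b*. Per kilobase of exon, *Cdkn1b* was at 38.9 CPM and *Cdkn1c* at 1.14 CPM.

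Outside the list, *Cdkn1a*, encoding the CDK inhibitor p21, a target of p53, was at 126, 149 and 145 CPM in WT (a to c) and 296, 197 and 199 CPM in KO (a to c). Each KO library was above each WT library, at 140.1 ± 12.6 CPM in WT and 231 ± 56.4 CPM in KO (mean ± SD, n = 3 each), and it missed the threshold (log2 fold change 0.72 ± 0.15 (SE), adjusted p = 0.0567, edgeR). *Cdkn2a*, the locus of p16 and p19, had 0 or 1 count per library, under the 3 counts (0.128 to 0.145 CPM) taken as the floor. It was not detectable at this depth in either genotype.

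Further genes of the same pathways were described by the same classes. None of 148 passed in edgeR: 53 of replication, 63 of mitosis, 27 of G1 and the RB-E2F axis, and 5 CDK inhibitors, with 0, 0, 3 and 2 higher and 0, 0, 2 and 0 lower in KO at an unadjusted p below 0.05 (background 5.58% and 5.97% of all genes). Of the 63 mitosis genes, 53 were lower in mean level in KO (median log2 fold change −0.14), and WT a was the lowest library for 62. Their library mean of centred log2 CPM was −1.09, 0.47 and 0.55 in WT (a to c) and −0.088, −0.20 and 0.36 in KO (a to c). Without WT a, 60 of 63 were lower, 44 with an unadjusted p below 0.05 (background 8.29%) and 5 past the adjusted threshold (background 1.22%). For the 62 genes with WT a lowest, leaving it out necessarily lowered the fold change. Of the 53 replication genes, 30 were higher and 23 lower (median 0.026), and WT a was the lowest library for 27 and WT b for 17. The low level of mitosis genes in WT a was thus also seen beyond the 50 genes.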

How the data were processed

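Per the methods, the authors aligned strand-specific single reads of 65 bases to mouse genome GRCm38 with TopHat (2.1.0; Bowtie 1.1) on Ensembl models. A script of theirs then assigned reads with a single match to genes, by strand. The deposited values are these raw counts in whole numbers, neither normalized nor pooled. The authors analysed them with limma and edgeR, after voom. Dropping reads with several matches lowers genes that have near-identical copies. RNA had an integrity number above a set minimum in every library.

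All 22295 genes were read in R 4.3.3, and the 21681 with a count were fitted with edgeR 4.0.16 (TMM, glmQLFit, glmQLFTest) with genotype as the only term. Benjamini-Hochberg adjustment ran over all of them, and every adjusted p is from this fit unless another tool is named. Each SE is the absolute log2 fold change divided by the square root of the quasi-likelihood F statistic, as edgeR gives no SE itself. CPM values are scaled by TMM factors. The 3 libraries per genotype are separate mice, and no pairing was fitted. Depth was 20578309 to 23670507 counts per library, 3 counts correspond to 0.128 to 0.145 CPM, and such limits cover counting error only, since reads carry no molecular identifiers.

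Alternatives were limma-voom (limma 3.58.1), DESeq2 1.42.0, library size only, upper-quartile factors, filterByExpr, at least 10 counts in every library, no filter, medians over members, longest transcripts and each library left out. The fits of limma-voom and DESeq2 without WT a were added after seeing the data. The code was tested on simulated data. Exon lengths came from GENCODE M21, which held all 50 genes. Promoter windows came from RefSeq (GRCm38.p6).

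The genes, their classes and the further lists were chosen with earlier results of these data known. Values per library are given for the 4 genes with the smallest p among replication and among mitosis genes, the 3 among G1 genes, all CDK inhibitors, the most and least abundant gene per length of each class, and *Mki67*, *Top2a*, *Ccnb1*, *Cdk1*, *Mcm2*, *Pcna*, *Rrm2*, *Ccnd1*, *Ccnd2*, *Ccnd3*, *Cdkn1a*, *Cdkn2a* and *Itga3*.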

Additional observations from a re-analysis of the deposited data

How the results depend on the processing

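With all 6 libraries, no tool, scaling or filter tried called any of the 50 genes at an adjusted p below 0.05, and 2 (higher) and 0 (lower) had an unadjusted p below 0.05 in each. With a library left out, the number of genes at an adjusted p below 0.05 was 0 to 8, the 8 without WT a, and without WT a it was 1 in limma-voom and 14 in DESeq2. At an unadjusted p below 0.05, 0 to 4 were higher in KO with a library left out (1 without WT b, 4 without WT c, 0 without KO c), and 0 to 26 were lower. The 26 were without WT a, and limma-voom and DESeq2 gave 26 each. Across libraries left out, the median log2 fold change of mitosis genes was −0.60 to 0.12, of replication genes −0.080 to 0.30, and of G1 genes 0.026 to 0.19. Levels per kilobase depended on the length used, with 81.3 CPM for *Pcna* and 115 CPM for *Cdk4* by the longest transcript.

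The sign of single log2 fold changes turned when a library was left out: −0.040 to 0.31 for *Mcm2*, −0.023 to 0.46 for *Tyms*, −0.88 to 0.0030 for *Cenpa*, −0.49 to 0.097 for *Cdkn2c*, −0.094 to 0.38 for *Cdc6*, −0.62 to 0.052 for *Cdc20*, −0.67 to 0.20 for *Cenpf*, −0.59 to 0.20 for *Mki67*, −0.47 to 0.24 for *Top2a*, −0.66 to 0.11 for *Cdk1* and −0.38 to 0.36 for *Rrm2*. In limma-voom with all libraries it was 0.0081 for *Cdc20*, 0.080 for *Cenpf*, 0.13 for *Mki67*, 0.096 for *Top2a*, 0.013 for *Ccnb1*, 0.0021 for *Cdk1* and 0.017 for *Rrm2*. Without WT a, *Cdc6* was at −0.049 in limma-voom and −0.10 in DESeq2. The cause was not tested. No paired analysis was possible because no WT library is tied to a KO library. The columns carry numbers of unstated meaning, not the sample numbers that the labels repeat, and each library is a separate mouse. Groups of 3 limit the precision, and in WT the spread of mitosis genes left standard errors of 0.35 to 0.49 on the log2 scale.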
